A study of Canis lupus familiaris with 15 samples.

Results

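Genes of secretory and endosomal membrane traffic were chosen by name. A gene was taken when its symbol started with RAB, VPS, SNX, STX or SEC followed by a digit, or with COPA, COPB, COPE, COPG, COPZ or TMED. The rule found 75 genes, measured by 115 probes, among the 5246 genes that could be named on a canine cDNA array. No member of the COPZ branch was among them. The choice used the name alone and no measured value, and 1 member, VPS72, carries the letters but is known as a chromatin protein.

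The arrays compared 3 canine mammary tumour cell lines with each other in a loop, 5 arrays for each pair of lines. A benign mixed tumour gave CMT-U229, a primary osteosarcoma that arose in the mammary gland gave CMT-U335, and P114 derives from an anaplastic mammary carcinoma. None of the lines was treated, and RNA was taken from cultures near confluence, amplified with a T7 promoter, coupled to Cy3 or Cy5 and hybridised with RNA of a second line on the same array. Each tumour type is represented by 1 cell line, so the tumour type and the line cannot be told apart. All values below are log2 ratios of the first line over the second, as normalised by the authors, and the arrays carry no separate level for each line.

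Proteins destined for the cell surface or for secretion enter the endoplasmic reticulum through the SEC61 channel and leave it in vesicles coated with COPII. COPI coats return escaped proteins from the Golgi, and TMED proteins act as cargo receptors on both routes. RAB GTPases mark each membrane and recruit tethers, SNAREs such as the syntaxins fuse the vesicle with its target, and on endosomes the retromer complex and the sorting nexins choose which receptors are recycled before VPS tethers and ESCRT proteins pass the rest to the lysosome.

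The labels put Cy5 in channel 1, and the ratio was read as Cy5 over Cy3, which the sources used here do not state. The direction of every ratio is therefore likely and not settled, and read as Cy3 over Cy5 every higher below becomes lower, every lower higher, and every order of lines is turned round. Turned this way, the epithelial surface marker EPCAM was higher in P114 than in CMT-U335, at 3.55 ± 0.15 (SE, n = 5; adjusted p = 2.47e-05). Of 5 luminal epithelial markers 3 were measured, and all 3 were higher in P114 than in CMT-U335 and in CMT-U229 than in CMT-U335. KRT8 did not differ between P114 and CMT-U229, at -0.31 (adjusted p = 0.473), where EPCAM was at 1.80 and KRT18 at 2.41. Of the osteoblast markers 4 of 6 were measured. COL1A2, a chain of type I collagen, was at -1.39 in P114 over CMT-U335, 2.06 in P114 over CMT-U229 and -3.39 in CMT-U229 over CMT-U335, all called. SPP1, the bone matrix protein osteopontin, was higher than in CMT-U335 in both other lines, at 4.12 in P114 and 2.58 in CMT-U229. SPARC, another bone matrix protein, was higher in P114 than in CMT-U335, at 0.56 (adjusted p = 0.0485), and than in CMT-U229, at 1.33. The first SPARC call was lost without any of replicates 2 to 5 and both with the apparent dye swaps averaged, and ALPL was called in no pair. All 5 mesenchymal markers were measured. ZEB1, DCN, S100A4 and FBLN2 were lower in CMT-U229 than in CMT-U335, from -1.58 to -0.57 (median of the 5 markers -0.81), P114 was below CMT-U335 in ZEB1 (-0.91) and FBLN2 (-0.84), and DCN (0.90) and S100A4 (1.54) were higher in P114 than in CMT-U229. The DCN call in that last pair was lost without any of replicates 2 to 5, and the calls of DCN and COL1A2 there were lost with the swaps averaged. Mesenchymal markers were thus called in all 3 pairs, as traffic genes were. Leukocyte markers were thin on the array (2 of 5) and among them CD14 was higher in P114 than in CMT-U335, at 0.36, and than in CMT-U229, at 0.50. The first CD14 call was lost without any of replicates 2 to 5, with a dye term and with scale normalisation. Both CD14 calls were lost with the swaps averaged (adjusted p = 0.096 and 0.0611). The 2 endothelial markers measured passed the test in no pair. The part of these markers in the results on traffic genes was not tested. Each RNA came from a whole culture, so fewer cells that use a gene and less of its RNA per cell cannot be told apart.

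Between P114 and CMT-U335, 21 of the 75 traffic genes passed the test (28%), against 22.3% of all 5246 genes. The sorting nexins SNX3, SNX2 and SNX24 led the members that were lower in P114, and the GTPase genes RAB24, RAB6A and RAB11A led those that were higher. A gene was called when limma's Benjamini-Hochberg adjusted p over all 5246 genes was under 0.05. In P114 7 members were higher, where 7.89% of all genes were, and 14 were lower, where 14.4% of all genes were. Between CMT-U229 and CMT-U335, 21 members were again called (28%), against 17.3% of all genes. Of these 12 were higher in CMT-U229, with RAB8A and RAB11B in front and 8.77% of all genes as background, and 9 were lower, with 8.58% as background. P114 and CMT-U229 stood closer to each other: 5 members were called (6.67%), near the 7.3% of all genes, with 1 higher (background 3.32%) and 4 lower (background 3.98%). These p-values measure the spread between arrays. The labels call each array a biological replicate, the series design also names dye swaps, and neither says which arrays share an RNA, so part of that spread may be technical. If arrays share an RNA, a pair holds fewer than 5 independent samples and these p-values are too small.

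**Figure D1:**
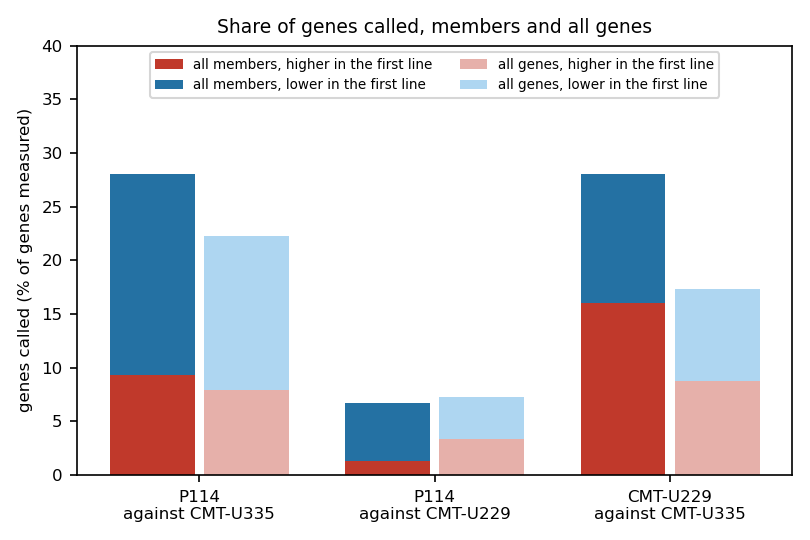
Bars give the percent of genes called at an adjusted p under 0.05 in each pair of lines, for the 75 members (dark) and all 5246 genes (pale), split by direction in the first line named. Members reached 28% in both pairs with CMT-U335 and 6.67% between P114 and CMT-U229.

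Most differences were small. The 47 called values of members ran from 0.29 to 1.23 in size, which is 1.22-fold to 2.35-fold, and 2 of them reached 2-fold (SNX3 and SNX2, both between P114 and CMT-U335). The members as a list were not shifted: their median ratio was -0.03 in P114 against CMT-U335, -0.01 in P114 against CMT-U229 and -0.0047 in CMT-U229 against CMT-U335, beside medians of -0.02, -0.01 and -0.0050 over all genes. Called in at least 1 pair were 32 members (42.7%), where 29.9% of all genes were, and 43 were called in none. The ratios of those 43 lay between -0.53 and 0.49, and 121 of their 129 ratios were under 0.3 in size. At the edge of the threshold in the first pair, RAB9B (-0.56, adjusted p = 0.0441) was just inside and RAB18 (-0.34, adjusted p = 0.0506) just outside. RAB14 (0.36, adjusted p = 0.0392) and RAB12 (-0.31, adjusted p = 0.0505) stood on either side of it between CMT-U229 and CMT-U335.

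**Figure D2:**
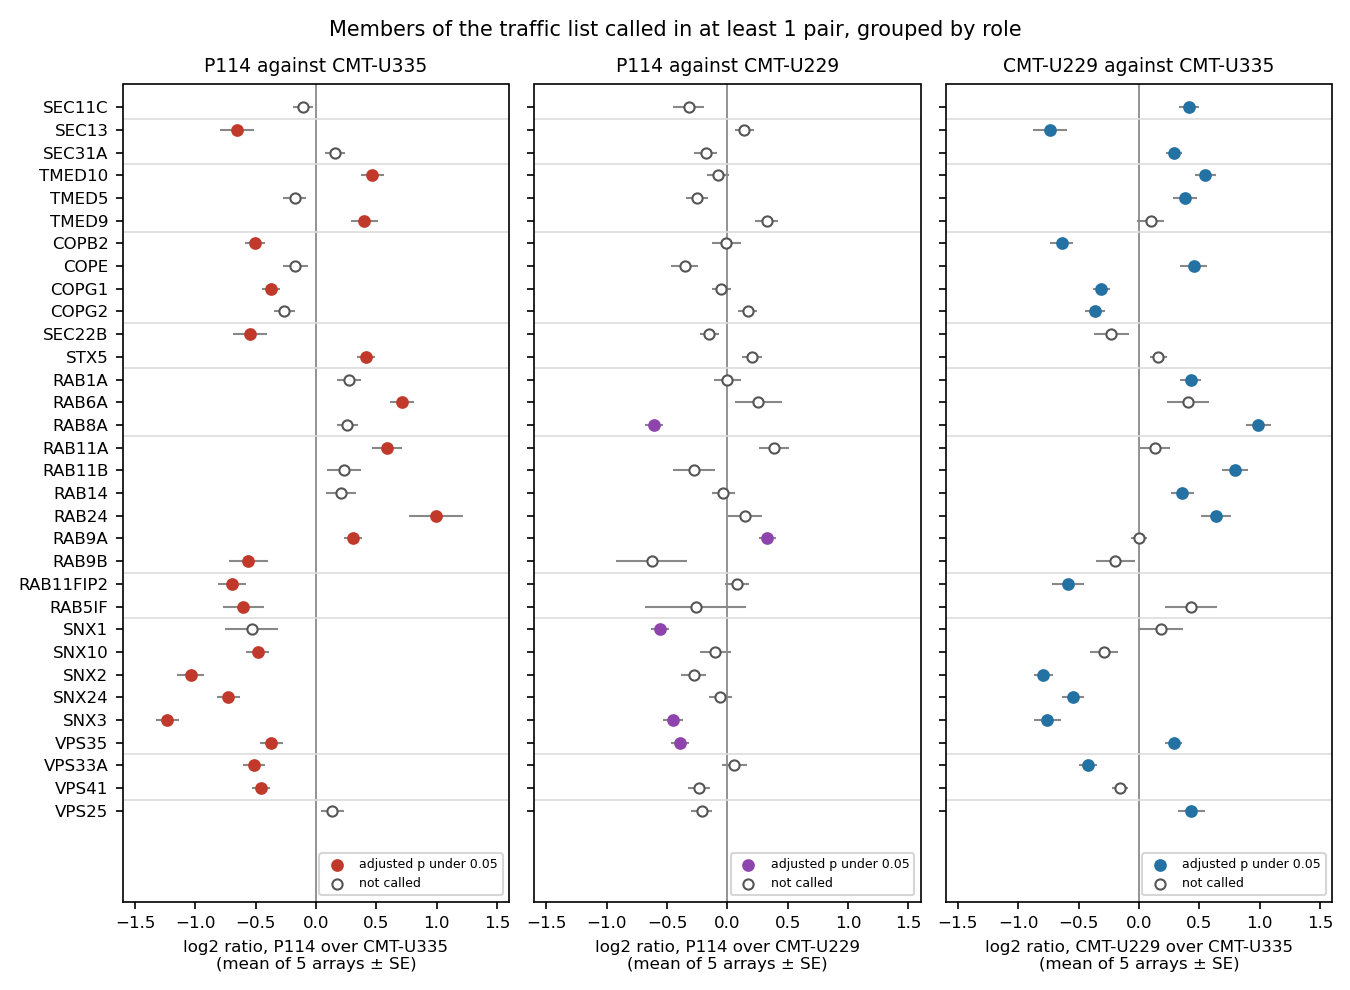
Points give the mean log2 ratio of 5 arrays with its moderated SE for the 32 members called in at least 1 pair, 1 panel per pair, ordered by role, with filled points for calls at an adjusted p under 0.05. SNX3 (-1.23) and SNX2 (-1.04) lie farthest to the left in the first panel, and RAB8A (0.99) and RAB11B (0.80) farthest to the right in the panel of CMT-U229 against CMT-U335.

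Some arrays of a pair deviated together in earlier results of these data, as dye swaps of 1 RNA would. When these couples were averaged first, 14 members were called between P114 and CMT-U335 (18.7%, against 16% of all genes), 0 between P114 and CMT-U229 (limma; against 1.51%, with 10 members at an unadjusted p under 0.05) and 8 between CMT-U229 and CMT-U335 (10.7%, against 7.82%). So 25 of the 47 called values were lost, all 5 between P114 and CMT-U229 among them, and each gene this touches is named below. Of the 47 values, 24 kept their call without any single array, and 16 did so and kept it under every alternative fitted per gene, an adjusted p under 0.01 included.

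The counts by role that follow are of small groups. Beside them stand the shares of all genes, 7.89% higher and 14.4% lower in P114 than in CMT-U335, 3.32% and 3.98% in P114 against CMT-U229, and 8.77% and 8.58% in CMT-U229 against CMT-U335. Of the members, SNX3 and SNX2 among the retromer and sorting nexins had the largest differences. Of 14 measured genes, 5 were lower and 0 higher in P114 than in CMT-U335, 3 were lower in P114 than in CMT-U229, and 3 were lower and 1 higher in CMT-U229 than in CMT-U335. SNX3 is a small sorting nexin that binds the endosomal lipid PI3P and works with retromer in recycling receptors. Its ratio of P114 over CMT-U335 was -1.33, -0.99, -1.52, -1.09 and -1.23 on replicates 1 to 5, a mean of -1.23 ± 0.095 (SE; 2.35-fold; adjusted p = 0.00021). Against CMT-U229, P114 read -0.65, -0.43, -0.48, -0.24 and -0.46 (mean -0.45 ± 0.082; adjusted p = 0.0200). CMT-U229 over CMT-U335 was -0.65, -0.56, -0.48, -1.14 and -0.95 (mean -0.76 ± 0.11; adjusted p = 0.00432). All 15 arrays thus gave SNX3 the same order, highest in CMT-U335, then CMT-U229, then P114 (or P114 highest and CMT-U335 lowest, if the ratios are Cy3 over Cy5). The step between CMT-U229 and P114 is the least firm: its call was lost without any one of replicates 1, 2, 3 or 5 (adjusted p = 0.0628 to 0.0863) and with the apparent swaps averaged (adjusted p = 0.148).

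SNX2, which bends endosomal membrane into tubules as a partner of SNX1, was lower in both other lines than in CMT-U335. P114 over CMT-U335 was -0.98, -0.98, -1.43, -0.65 and -1.16 (mean -1.04 ± 0.11; 2.06-fold; adjusted p = 0.0008). CMT-U229 over CMT-U335 was -0.95, -0.88, -0.60, -0.63 and -0.89 (mean -0.79 ± 0.081; adjusted p = 0.00106). No array of either pair reached 0. Between P114 and CMT-U229 the mean was -0.28 ± 0.10, which did not pass (adjusted p = 0.192). SNX2 also carried a dye effect (Cy5 minus Cy3) of -0.18, and its calls were kept with a dye term.

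SNX24, a short sorting nexin with little beyond its lipid-binding domain, had a similar pattern. P114 over CMT-U335 was -1.03, -0.62, -0.85, -0.55 and -0.58 (mean -0.73 ± 0.095; adjusted p = 0.00181), and CMT-U229 over CMT-U335 was -0.76, -0.36, -0.36, -0.48 and -0.76 (mean -0.54 ± 0.091; adjusted p = 0.00714). All 10 arrays were below 0. P114 over CMT-U229 was -0.06 and did not pass, with 4 arrays between -0.19 and -0.08 and replicate 3 at 0.30.

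VPS35, the central subunit of retromer, was called in all 3 pairs, as was SNX3 and no other member, but in a different order: highest in CMT-U229 and lowest in P114. P114 over CMT-U335 was -0.39, -0.07, -0.57, -0.26 and -0.56 (mean -0.37 ± 0.096; adjusted p = 0.0299). P114 over CMT-U229 was -0.55, -0.33, -0.41, -0.25 and -0.43 (mean -0.40 ± 0.076; adjusted p = 0.0244). CMT-U229 over CMT-U335 was 0.37, 0.38, 0.35, 0.24 and 0.10 (mean 0.29 ± 0.072; adjusted p = 0.0346). Every array agreed in sign with its pair, yet all 3 calls were near the threshold. They were lost without replicate 1, 3, 4 or 5 in the first pair (adjusted p = 0.0608 to 0.0999), without 1, 2, 3 or 5 between P114 and CMT-U229 (0.0663 to 0.109) and without 1, 2, 3 or 4 between CMT-U229 and CMT-U335 (0.0629 to 0.130), and all 3 with the apparent swaps averaged (0.128, 0.142 and 0.144). With a dye term both calls against CMT-U335 were lost as well (0.0551 and 0.0530).

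SNX1, the partner of SNX2, was lower in P114 than in CMT-U229, at -0.62, -0.56, -0.39, -0.60 and -0.63 (mean -0.56 ± 0.074; adjusted p = 0.00548). That narrow range did not extend to the pair with CMT-U335, where its arrays read -1.19, 0.11, -1.18, 0.04 and -0.44, a mean of -0.53 that did not pass (adjusted p = 0.132). Its call was lost with a mean per pair fitted over all 15 arrays, in the fit with replicate number as a block (adjusted p = 0.0701) and with the swaps averaged (0.0548). SNX10, an endosomal nexin known for its role in bone-resorbing osteoclasts, was lower in P114 than in CMT-U335 at -0.48 ± 0.092 (adjusted p = 0.00882; 0.0679 with the swaps averaged).

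SNX2 and SNX24 are neighbours on canine chromosome 11 in the RefSeq annotation of assembly UU_Cfam_GSD_1.0, and their measured neighbours were looked up after these values were seen. PPIC, the prolyl isomerase cyclophilin C, is the next measured gene past SNX24. It was lower in P114 than in CMT-U335, at -1.96 ± 0.21 (3.88-fold; adjusted p = 0.000754), with arrays from -2.62 to -1.23. It was also lower in P114 than in CMT-U229, at -0.77 ± 0.13 (adjusted p = 0.0159), and in CMT-U229 than in CMT-U335, at -1.18 ± 0.19 (adjusted p = 0.00678). The measured genes on either side of these 3 were not called: SNCAIP was at -0.15, 0.00 and -0.20 in the 3 pairs and CEP120 at 0.10, 0.34 and 0.07. Farther out, HSD17B4 (-0.39, adjusted p = 0.0154) and ALDH7A1 (-0.45, adjusted p = 0.0160) were below CMT-U335 in P114 and not called in the other pairs. LOC474655, which lies between HSD17B4 and SNCAIP, was at 0.12, -0.04 and -0.09 in the 3 pairs and was not called. Of the 158 genes measured on chromosome 11, 30 (19.0%) were lower and 11 (6.96%) higher in P114 than in CMT-U335, beside 14.4% and 7.89% of all genes, with a median ratio of -0.05. In P114 against CMT-U229, 9 (5.70%) were lower and 3 (1.90%) higher, beside 3.98% and 3.32% of all genes. In CMT-U229 against CMT-U335, 17 (10.8%) were lower and 11 (6.96%) higher, beside 8.58% and 8.77% of all genes.

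**Figure D3:**
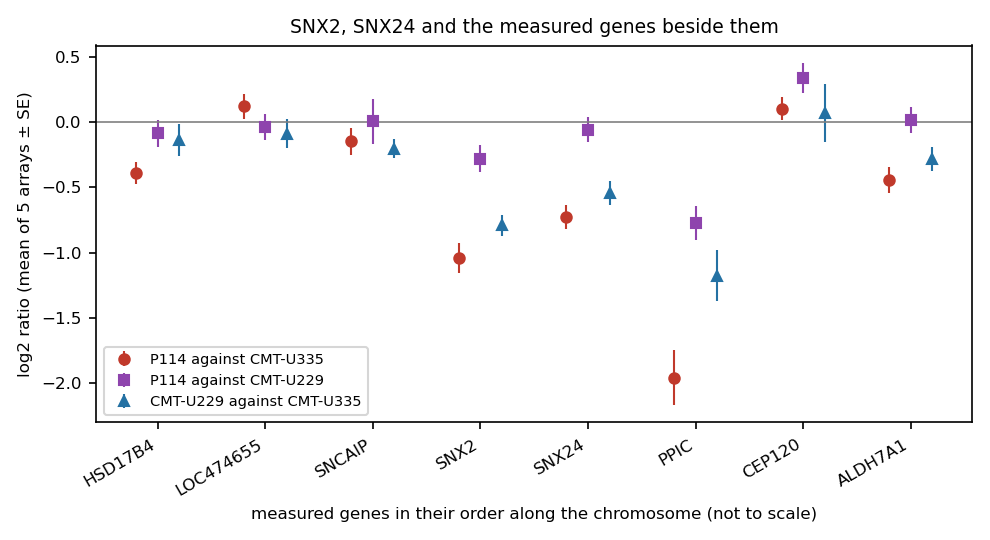
Mean log2 ratios (5 arrays, ± SE) of SNX2, SNX24 and the measured genes around them in their order along chromosome 11, which is not to scale, for the 3 pairs of lines. SNX2, SNX24 and PPIC lie below 0 in both pairs with CMT-U335, PPIC lowest at -1.96, while SNCAIP and CEP120 beside them were not called.

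Among the tethers and fusion factors with VPS symbols, 2 of 7 had lower ratios in P114 than in CMT-U335, past the test, and 1 was lower in CMT-U229 than in CMT-U335. VPS33A, which guides SNARE assembly in the HOPS and CORVET tethers, read -0.57, -0.40, -0.57, -0.29 and -0.74 in P114 over CMT-U335 (mean -0.51 ± 0.087; adjusted p = 0.00536). In CMT-U229 over CMT-U335 it read -0.33, -0.60, -0.42, -0.51 and -0.27 (mean -0.43 ± 0.075; adjusted p = 0.00874; 0.0651 with the swaps averaged). Its probes differed in size, from -0.83 to -0.20 in the first pair, with the same sign. VPS41, another HOPS subunit, was lower in P114 than in CMT-U335 at -0.46 ± 0.076 (adjusted p = 0.00472), with all 5 arrays between -0.55 and -0.27. VPS8, VPS18, VPS33B, VPS52 and VPS54 were called in no pair.

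Of 3 ESCRT genes, VPS25, a subunit of ESCRT-II, was higher in CMT-U229 than in CMT-U335, at 0.81, 0.16, 0.45, 0.16 and 0.59 (mean 0.44 ± 0.11; adjusted p = 0.0381). The call was lost without replicate 1, 2, 3 or 5 (adjusted p = 0.0542 to 0.129), with a dye term (0.0629) and with the swaps averaged (0.0943). VPS36 and VPS4A passed in no pair.

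The COPI coat, which carries proteins back from the Golgi to the endoplasmic reticulum, had 2 of 5 measured subunits lower in P114 than in CMT-U335, and 3 lower and 1 higher in CMT-U229 than in CMT-U335. COPB2, the beta' subunit, read -0.59, -0.34, -0.33, -0.60 and -0.67 in P114 over CMT-U335 (mean -0.51 ± 0.084; adjusted p = 0.00481). It read -0.46, -0.54, -0.58, -1.01 and -0.62 in CMT-U229 over CMT-U335 (mean -0.64 ± 0.094; adjusted p = 0.00421). Both calls were kept under every alternative. COPG1, a gamma subunit, was lower in P114 than in CMT-U335 at -0.17, -0.46, -0.37, -0.43 and -0.44 (mean -0.37 ± 0.076; adjusted p = 0.0116). It was also lower in CMT-U229, at -0.41, -0.27, -0.10, -0.37 and -0.40 (mean -0.31 ± 0.074; adjusted p = 0.0291). The second call was lost without replicate 1, 2, 4 or 5 (adjusted p = 0.0716 to 0.107) and with the swaps averaged (0.124). The 2 probes of COPG1 read -0.66 and -0.09 in the first pair and -0.62 and near 0 in the second. In each pair 1 of them was called by itself, so both COPG1 results rest on 1 probe.

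COPG2, the second gamma subunit, was lower in CMT-U229 than in CMT-U335 at -0.14, -0.59, -0.37, -0.46 and -0.25 (mean -0.36 ± 0.084; adjusted p = 0.0265), and its -0.26 in P114 over CMT-U335 did not pass (adjusted p = 0.0730). COPE, the epsilon subunit, went the other way and was higher in CMT-U229 than in CMT-U335 at 0.57, 0.04, 0.64, 0.27 and 0.74 (mean 0.45 ± 0.11; adjusted p = 0.0357). Without replicate 2, 3, 4 or 5 the call of COPG2 was lost (adjusted p = 0.0631 to 0.0982), and without 1, 3, 4 or 5 that of COPE (0.0547 to 0.119). With the swaps averaged both missed (0.153 and 0.0503), and COPE missed with a dye term (0.0632). COPA, the alpha subunit that forms the outer coat with COPB2, was at 0.02, -0.09 and 0.21 in the 3 pairs and was not called.

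The COPII coat was represented by 3 genes. SEC13, a cage protein of COPII that also sits in the nuclear pore, was lower in P114 than in CMT-U335 at -1.02, -0.04, -0.82, -0.54 and -0.87 (mean -0.66 ± 0.14; adjusted p = 0.0147). It was lower in CMT-U229 than in CMT-U335 at -0.20, -0.70, -0.64, -1.23 and -0.91 (mean -0.74 ± 0.14; adjusted p = 0.0130). All 3 of its probes were called lower in both pairs, and replicate 2 of the first pair lay near 0. Its calls missed the threshold without replicate 3 in the first pair (adjusted p = 0.0543), without replicate 5 in the second (0.0542) and with the swaps averaged in both (0.110 and 0.111). SEC31A, the cage partner of SEC13, was higher in CMT-U229 than in CMT-U335 at 0.22, 0.39, 0.31, 0.22 and 0.31 (mean 0.29 ± 0.065; adjusted p = 0.0222). This call was lost without replicate 2, 3 or 5 (0.0762 to 0.0965) and with the swaps averaged (0.149). SEC16A was called in no pair.

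Of the TMED cargo receptors, 2 of 4 were higher in P114 than in CMT-U335 and 2 of 4 in CMT-U229 than in CMT-U335, with 0 lower in any pair. TMED10 read 0.65, 0.58, 0.52, 0.45 and 0.12 in P114 over CMT-U335 (mean 0.47 ± 0.094; adjusted p = 0.0109). In CMT-U229 over CMT-U335 it read 0.77, 0.28, 0.50, 0.56 and 0.64 (mean 0.55 ± 0.086; adjusted p = 0.00554). Every array was above 0, and both probes of TMED10 were called in both pairs. TMED9 was higher in P114 than in CMT-U335 at 0.40 ± 0.11 (adjusted p = 0.0397), with replicate 1 at -0.05 and the others from 0.41 to 0.70. TMED5 was higher in CMT-U229 than in CMT-U335 at 0.38 ± 0.098 (adjusted p = 0.0378), with arrays from 0.12 to 0.65. Both of these last calls were lost without any one of replicates 2 to 5 (adjusted p = 0.0960 to 0.121 and 0.0721 to 0.124), with a dye term (0.0724 and 0.0509) and with the swaps averaged (0.0558 and 0.20).

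Of the 6 genes for entry into the endoplasmic reticulum and signal cleavage, 1 was called. SEC11C, a catalytic subunit of the signal peptidase, was higher in CMT-U229 than in CMT-U335 at 0.39, 0.42, 0.69, 0.30 and 0.27 (mean 0.41 ± 0.082; adjusted p = 0.0140), with 3 of its 4 probes called. It was lost without replicate 2 (adjusted p = 0.0576) and with the swaps averaged (0.0776). Its paralogue SEC11A, the channel subunits SEC61A2, SEC61B and SEC61G, and SEC63 passed in no pair.

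SNAREs that act between the endoplasmic reticulum and the Golgi went in opposite directions in P114 against CMT-U335, the only pair in which any of the 6 was called. STX5, the syntaxin of the Golgi, was higher in P114 at 0.40, 0.38, 0.62, 0.37 and 0.32 (mean 0.42 ± 0.076; adjusted p = 0.0073). Its 3 probes did not agree in size or sign, from -0.11 to 1.31, and 1 of them was called by itself, so the STX5 result rests on 1 probe. SEC22B, which pairs with STX5 in fusion of vesicles from the endoplasmic reticulum, was lower at -1.07, -0.05, -0.74, -0.49 and -0.39 (mean -0.55 ± 0.14; adjusted p = 0.0296). Its call was lost without replicate 1, 3, 4 or 5 (0.0559 to 0.0970) and with the swaps averaged (0.146).

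Of 9 RAB GTPases of the secretory route, 1 was higher in P114 than in CMT-U335, 1 was lower in P114 than in CMT-U229, and 2 were higher in CMT-U229 than in CMT-U335. RAB8A, which brings vesicles from the Golgi to the plasma membrane, was highest in CMT-U229. CMT-U229 over CMT-U335 read 1.09, 1.12, 1.24, 0.91 and 0.59 (mean 0.99 ± 0.10; 1.99-fold; adjusted p = 0.00117). P114 over CMT-U229 read -0.73, -0.45, -0.70, -0.60 and -0.59 (mean -0.61 ± 0.076; adjusted p = 0.00446; 0.0568 with the swaps averaged). The difference in RAB8A between P114 and CMT-U335, 0.26, did not pass (adjusted p = 0.0673). Both of its probes were called in each of the 2 pairs with CMT-U229. Its paralogue RAB8B was called in no pair, at -0.38 (adjusted p = 0.0908), -0.16 and -0.26 (adjusted p = 0.104) in the same order of pairs as above, P114 over CMT-U335 first.

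RAB6A, which acts within the Golgi and on its way back to the endoplasmic reticulum, was higher in P114 than in CMT-U335 at 1.00, 0.63, 0.44, 0.90 and 0.60 (mean 0.72 ± 0.10; 1.64-fold; adjusted p = 0.00242). It stood at 0.26 in P114 over CMT-U229 and 0.40 in CMT-U229 over CMT-U335, neither of which passed. RAB1A, which serves the step from the endoplasmic reticulum to the Golgi, was higher in CMT-U229 than in CMT-U335 at 0.12, 0.66, 0.48, 0.47 and 0.41 (mean 0.43 ± 0.089; adjusted p = 0.0176). The RAB1A call was lost without replicate 2, 3 or 5 (0.0603 to 0.0687) and with the swaps averaged (0.145).

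Of 11 RAB GTPases of endosomes and autophagy, 3 were higher and 1 lower in P114 than in CMT-U335, 1 was higher in P114 than in CMT-U229, and 3 were higher in CMT-U229 than in CMT-U335. RAB24, an unusual RAB linked to autophagosomes, was lowest in CMT-U335. P114 over CMT-U335 read 1.12, 1.07, 1.22, 1.65 and -0.09 (mean 0.99 ± 0.22; 1.99-fold; adjusted p = 0.0167), and CMT-U229 over CMT-U335 read 0.89, 0.47, 0.40, 0.36 and 1.08 (mean 0.64 ± 0.13; adjusted p = 0.0135). In the first pair replicate 5 stood on the other side of 0 from the rest, and the call was lost without replicate 1, 3 or 4 (adjusted p = 0.0501 to 0.06). RAB14, a RAB of the Golgi and early endosomes, was higher in CMT-U229 than in CMT-U335 at 0.36 ± 0.093, with arrays from 0.02 to 0.55. It was lost without replicate 2, 3, 4 or 5 (0.0993 to 0.126), with each array's median set to 0 and with the swaps averaged (0.247).

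RAB11A and RAB11B, close paralogues of the recycling endosome, were called in different pairs. RAB11A was higher in P114 than in CMT-U335 at 0.69, 1.01, 0.56, 0.57 and 0.12 (mean 0.59 ± 0.12; adjusted p = 0.0129), and was not called in CMT-U229 over CMT-U335, at 0.13. RAB11B was higher in CMT-U229 than in CMT-U335 at 0.78, 0.81, 1.23, 0.55 and 0.63 (mean 0.80 ± 0.11; 1.74-fold; adjusted p = 0.00294), and was not called in P114 over CMT-U335, at 0.23. Whether the paralogues differed from each other was not tested. RAB11FIP2, an effector that binds both, was lower in P114 than in CMT-U335 at -0.84, -0.86, -0.96, -0.25 and -0.60 (mean -0.70 ± 0.12; adjusted p = 0.00458). In CMT-U229 over CMT-U335 it read -0.93, -0.32, -0.11, -0.72 and -0.87 (mean -0.59 ± 0.14; adjusted p = 0.0258), a call lost without replicate 1, 4 or 5 (0.0639 to 0.0933) and with the swaps averaged (0.0867). The effector lay below 0 on all 10 arrays of these pairs.

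RAB9A and RAB9B, paralogues for the route from late endosomes back to the Golgi, were called in opposite directions in P114 against CMT-U335. RAB9A was higher in P114 at 0.24, 0.47, 0.20, 0.38 and 0.25 (mean 0.31 ± 0.075; adjusted p = 0.0234), and also higher than in CMT-U229 at 0.25, 0.37, 0.36, 0.30 and 0.38 (mean 0.33 ± 0.068; adjusted p = 0.0327). RAB9B was lower in P114 than in CMT-U335 at -0.97, -0.46, -0.13, -0.16 and -1.09 (mean -0.56 ± 0.16; adjusted p = 0.0441). RAB9A varied little between arrays and RAB9B widely, and between P114 and CMT-U229 RAB9B ran from -1.66 to 0.69 and was not called. The first call of RAB9A was lost without replicate 2, 4 or 5 (0.0503 to 0.0791) and with the swaps averaged (0.0672). Its second was lost without any single array (0.0627 to 0.106), with a dye term (0.0540) and with the swaps averaged (0.134). RAB9B was lost without replicate 1, 2 or 5 (0.0819 to 0.123), with a dye term (0.0819), over all 15 arrays and in the fit with replicate number as a block (0.12).

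**Figure D4:**
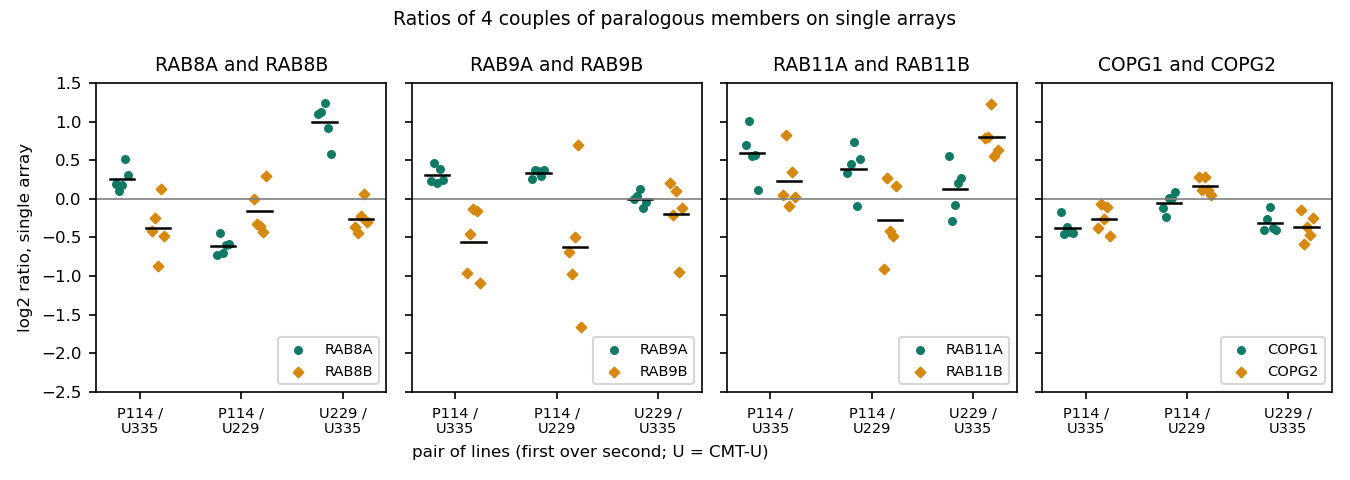
Log2 ratios on single arrays (points; bars are means of 5) for RAB8A and RAB8B, RAB9A and RAB9B, RAB11A and RAB11B, and COPG1 and COPG2 in the 3 pairs of lines. RAB8A is near 1 in CMT-U229 over CMT-U335 while RAB8B was not called at -0.26, and RAB9A lies in a narrow range above 0 in both pairs with P114 while RAB9B spreads widely, from -1.66 to 0.69 in P114 over CMT-U229.

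Of the other RAB partners, RAB5IF, named as a factor that interacts with RAB5, was lower in P114 than in CMT-U335 at -1.26, -0.61, -0.86, -0.10 and -0.19 (mean -0.60 ± 0.17; adjusted p = 0.0423). It was the member with the largest dye effect, 0.54, and its call was lost without replicate 1, 2 or 3 (adjusted p = 0.0884 to 0.129). The call was also lost under 7 alternatives, the dye term (0.0734), the swaps averaged (0.0884) and the stricter threshold among them. Neither of the 2 probes of RAB5IF, at -0.79 and -0.41, was called by itself in this pair. RAB12, VPS13B and VPS72, which joined no role group, were called in no pair, and the farthest from 0 was RAB12 in CMT-U229 over CMT-U335 at -0.31.

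CMT-U335 stood apart from both other lines in 10 members (13.3%), in the sense that a member was called in both pairs of the line in the same direction, which 10.2% of all genes were. Higher in CMT-U335 than in both were the 8 members COPB2, COPG1, RAB11FIP2, SEC13, SNX2, SNX24, SNX3 and VPS33A, where 6.2% of all genes were. RAB24 and TMED10 were lower in CMT-U335 than in both, where 4% of all genes were. With the ratios read as Cy3 over Cy5 these are 8 lower, beside 6.2%, and 2 higher, beside 4%. P114 stood apart in 3 members (4%, against 3.98% of all genes): RAB9A was higher (background 2.06%) and SNX3 and VPS35 were lower (background 1.93%). CMT-U229 stood apart in RAB8A and VPS35, both higher (2.67%, against 2.78% of all genes, with 1.73% higher and 1.05% lower). The shares for P114 and CMT-U229 were near their backgrounds. Both pairs of a line share that line, so a single aberrant culture would count in both.

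**Figure D5:**
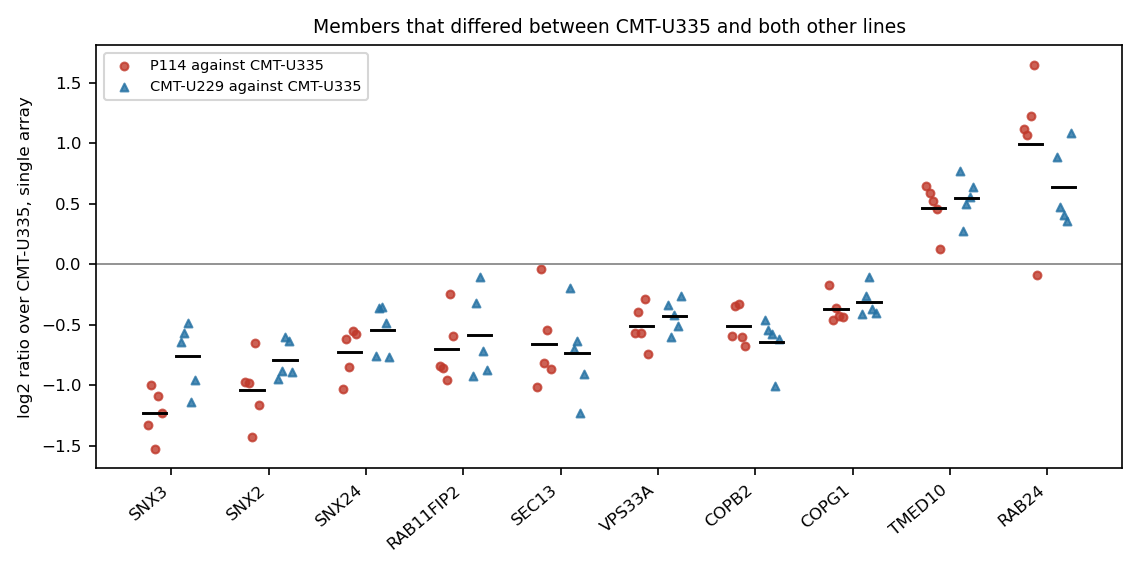
Log2 ratios over CMT-U335 on single arrays (points; bars are means of 5) for the 10 members that differed between CMT-U335 and both other lines. The 8 from SNX3 to COPG1, lie below 0 on all 10 arrays, TMED10 lies above 0 on all 10, and RAB24 lies above 0 on all but 1.

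Checks across the loop were made for all members. The direct ratio of P114 over CMT-U335 was set against the sum of the 2 indirect ratios, and 0 members missed closure, as 0% of all genes did, with 0 members and 17 genes at an unadjusted p under 0.05. The median size of the gap was 0.0879 for members and 0.0844 for all genes, and its median SE was 0.174, so gaps of that order were not detectable. The 17 of 5246 genes lie far below the share that an unadjusted p under 0.05 gives by chance. The check was therefore conservative and could hardly find an open loop. A dye effect was called for 8 members, where 11.7% of all genes had one. Those were RAB29, RAB5IF, SNX11, SNX14, SNX2, SNX8, VPS36 and VPS52, between -0.27 and 0.54 in size, and of them SNX2 and RAB5IF are among the members called between lines.

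The wider traffic machinery was read from lists of genes outside the rule. The counts on these lists stand beside the backgrounds given above: 7.89% of all genes higher and 14.4% lower in P114 than in CMT-U335, 3.32% and 3.98% in P114 against CMT-U229, and 8.77% and 8.58% in CMT-U229 against CMT-U335. Partners of translocation into the endoplasmic reticulum (22 measured) were called higher in P114 than in CMT-U335 in 8 cases and lower in 1. SPCS3, a signal peptidase subunit, was at 0.85 ± 0.075, TRAM1, a channel partner, at 0.78, SRP72, of the signal recognition particle, at 0.72, and SRP54, of the same particle, at -0.71. CMT-U229 over CMT-U335 had 5 higher and 1 lower, with SRP14 at 1.01, SPCS3 at 0.99, TRAM1 at 0.88 and STT3A, an oligosaccharyltransferase, at 0.73. P114 over CMT-U229 had 2 higher, DDOST at 0.49 and SSR2 at 0.42. The median of that list was 0.18 in the first pair beside -0.02 over all genes, and -0.0042 in CMT-U229 over CMT-U335.

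Cargo receptors and tethers between the endoplasmic reticulum and the Golgi (26 measured) were split, 4 higher and 4 lower in P114 than in CMT-U335, 1 and 1 against CMT-U229, and 3 and 3 in CMT-U229 over CMT-U335. LMAN1, the lectin receptor for glycoproteins, was lower than in CMT-U335 in both other lines, at -0.66 in P114 and -0.80 in CMT-U229. GORASP2, a Golgi stacking protein, was higher in both, at 0.39 and 0.66. ERGIC2 was at -0.39 and ERGIC3 at 0.38 in P114 over CMT-U335. GORASP1 was at -0.64 in P114 over CMT-U229 and 0.48 in CMT-U229 over CMT-U335, and ARCN1, the delta subunit of COPI whose symbol lies outside the rule, was at 0.48 and -0.60 in those pairs. The ARCN1 calls were lost over all 15 arrays and with the swaps averaged (adjusted p = 0.186 and 0.116).

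Clathrin and its adaptors (19 measured) had 5 lower and 1 higher in P114 than in CMT-U335. AP3B1, of the lysosomal adaptor AP-3, was at -1.02 ± 0.10, CLTA, a clathrin light chain, at -0.63 and GGA2 at -0.50, while AP2M1, of the plasma membrane adaptor, was at 0.69. Against CMT-U229, P114 had AP2M1 at 0.87 ± 0.069, AP4S1 at 0.45 and AP3S2 at -0.46, and CMT-U229 over CMT-U335 had PICALM at 0.37. ESCRT and CHMP genes (10 measured) had 3 lower in P114 than in CMT-U335, CHMP4B at -0.89, CHMP3 at -0.54 and PDCD6IP at -0.28, 0 called against CMT-U229, and 2 lower in CMT-U229 than in CMT-U335, CHMP4B at -0.51 and CHMP5 at -0.41.

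RAB regulators (9 measured) had 4 lower in P114 than in CMT-U335 and 2 lower in CMT-U229 than in CMT-U335. CHML, an escort protein for the lipid anchoring of RABs, was at -0.77 and -0.87 in those pairs and TBC1D15, a GTPase activator for RABs, at -0.71 and -0.69, while YIPF1 (-0.42) and RABGAP1L (-0.31) were called in the first alone. The list of ARF and SAR GTPases (9 measured) also holds CYTH2, a regulator of ARFs and not a GTPase. It had 4 genes lower in P114 than in CMT-U335, SAR1B at -0.48, ARF5 at -0.35, ARL1 at -0.34 and ARF6 at -0.31. Against CMT-U229, 1 gene was higher in P114, SAR1A at 0.73. The 1 gene called in CMT-U229 against CMT-U335 was CYTH2, lower at -0.33, so no GTPase of the list was called there. Among other SNAREs and fusion factors (13 measured), SCFD1 (-0.63), STXBP5 (-0.36) and VTI1B (-0.29) fell below CMT-U335 in P114. USO1, a Golgi tether, was at -0.50 in P114 over CMT-U229 and at 0.65 in CMT-U229 over CMT-U335, where GOSR1 (-0.49), STXBP5 (-0.38) and BET1 (-0.29) were lower. The 1 exocyst gene measured was not called. Of the 68 called values on these lists, 39 were lost with the apparent swaps averaged and 35 without some single array, and 23 were kept throughout at an adjusted p under 0.05. Kept in both pairs with CMT-U335 were SPCS3, TRAM1, SRP14, LMAN1 and GORASP2, and AP2M1 was kept in both pairs with P114.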

How the data were processed

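The authors deposited 1 normalised log ratio per probe and array, 22176 probes on 15 arrays with 2 missing values. The scale is read as log2: the largest value deposited, 12.4, is a 5511-fold ratio on that scale, and as a natural log it would be 249732-fold, beyond the 65536 steps of a 16-bit scan. The array medians lie between -0.00671 and 0.0134. How background and arrays were normalised is not given in the sources used here, and without intensities the distance of a probe from background is unknown, so the number of arrays limits the precision.

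Of the probes 7694 carry 1 gene symbol in the platform annotation and 14482 none. For 7340 the symbol was taken from RefSeq through the Entrez identifier, whether or not it differed from the platform's, and 354 kept the platform's. Each ratio was turned by its dyes to the first line over the second, and probes of a gene were averaged. Of the members, 48 have 1 probe and 27 several. In 23 of 81 combinations of such a member and a pair its probes differed in sign, and in 0 were they called in opposite directions.

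For each pair limma 3.58.1 in R 4.3.3 tested the mean of the 5 arrays against 0, with at least 3 arrays required, and Benjamini-Hochberg adjustment over 5246 genes. The series design names SAM, and a statistic of that type was an alternative. The script was tested on simulated data. Named are the members called in any pair, with every array for those set apart or among the 4 largest in a direction, and up to 4 called genes of each other list by size. The members were taken by a rule on names that used no measured value. That rule, the role groups and the lists were set with earlier results of these data known. Protein and promoter sequences were not used here.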

Additional observations from a re-analysis of the deposited data

Results flagged for a closer look

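In 6 of 163 groups of 5 arrays (3.68%) 1 array stood far from the other 4 by Dixon's criterion, which chance alone reaches in about 1 in 20 groups. The causes were not tested, and the array was replicate 3 of its pair each time. In P114 over CMT-U335, RAB12 read -0.58 there and -0.09 to 0.03 elsewhere, STX5 read 0.62 against 0.32 to 0.40, and SRP54 read -1.10 against -0.68 to -0.52. SNX24 read 0.30 in P114 over CMT-U229, where the other arrays lay between -0.19 and -0.08. CEP120, a neighbour of SNX24 on chromosome 11, read 0.84 in the same pair, against 0.17 to 0.24, and 1.19 in CMT-U229 over CMT-U335, against -0.34 to -0.08. The call of STX5 was kept without that array.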

How the results depend on the processing

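No called member value changed direction under any setting or without any array. The SAM-type statistic, scale normalisation, the filters on missing values and platform symbols lost 0 of the 47 called values. With 2 values missing on the arrays and the same 75 members under platform symbols, those filters and symbols could hardly change a call. Array medians set to 0 lost 2, a mean per pair over all 15 arrays 3, the loop fit 1 and a dye term 9. Replicate numbers did not pair the arrays (r from -0.298 to 0.188 over 15 comparisons). With a replicate block over all 15 arrays 26, 6 and 22 members were called in P114 against CMT-U335, P114 against CMT-U229 and CMT-U229 against CMT-U335, in place of 21, 5 and 21. A mean per pair over all 15 arrays without the block gave the same 26, 6 and 22. The loop fit called 33, 15 and 31 in these pairs. At an adjusted p under 0.01 the counts were 10, 2 and 8, and with the apparent swaps averaged 14, 0 and 8. Without single arrays they ran from 15 to 20, from 2 to 6 and from 11 to 17.

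The members set apart in P114, CMT-U335 and CMT-U229, 3, 10 and 2, became 0, 5 and 1 at the stricter threshold and 0, 6 and 0 with the swaps averaged. With a dye term those of P114 and CMT-U229 became 1 each. Without single arrays they ran from 0 to 4, from 7 to 10 and from 1 to 2; P114 had 0 without replicate 1, 2, 3 or 5 of P114 against CMT-U229. The 8 dye effects became 3 at the stricter threshold. The cause of these changes was not tested. No intensities were used, so values near background cannot be marked.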
